A study of Mus musculus with 8 samples.

Results

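The mRNAs examined here encode the machinery that RNA polymerase II (Pol II) needs to start transcription: the TATA-binding protein (Tbp), the TBP-associated factors (Tafs), the general factors TFIIA, TFIIB, TFIIE, TFIIF and TFIIH, the related factor TFII-I, the subunits of Pol II and the subunits of Mediator. Members were chosen by gene symbol alone among probes for RefSeq mRNAs. They were Tbp and symbols made of Taf, Gtf2, Polr2 or Med and a subunit number or letter. Longer Gtf2 symbols, namely Gtf2a1l, Gtf2ird1 and Gtf2ird2, were left out. This gave 80 genes of the 20030 RefSeq mRNA genes on the array, represented by 111 probes. NIH3T3 is an immortalised line of mouse fibroblasts, here male per the labels, and a single line cannot speak for other fibroblasts. Cells were grown in 10% newborn bovine serum on 15 cm plates and held in 0.5% serum for 24 h. One group of 3 arrays (cordycepin plus serum) came, per the labels, from cells given 20 µM cordycepin in DMSO for 90 min with serum added for the last 30 min. The paper's figure legend instead places the 30 min of serum after the 90 min of cordycepin. A second group of 3 arrays (serum) came from cells given 0.1% DMSO and then serum for 30 min, and the last group of 2 arrays (no serum) from cells left without added serum. The protocol gives 0.1% DMSO to control plates, but the labels do not state for each no serum array that its cells received it. Cordycepin is 3′-deoxyadenosine, an adenosine analogue that ends an RNA chain when it is built in. Cells given cordycepin without serum were not among the samples, and the labels do not say whether arrays of a group came from separate cultures, so p-values measure only the spread between these arrays.

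At a Pol II promoter, TFIID, which consists of Tbp and a set of Tafs, recognises the core promoter, TFIIA and TFIIB stabilise it there, and TFIIF brings in Pol II. TFIIE and TFIIH follow, and TFIIH opens the DNA and phosphorylates the tail of the largest Pol II subunit. Mediator, built from head, middle and tail modules around a scaffold and a separable kinase module, passes signals from activators to this assembly. Tbp is shared by all 3 nuclear RNA polymerases, and some Tafs belong to the Pol I factor SL1 or to histone acetyltransferase complexes instead of TFIID.

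Of the 80 genes, 78 were tested, as part of 13420 RefSeq mRNA genes tested, and all 78 were well above background on all 8 arrays. The exceptions were Med12l and Taf4b, a paralogue of a Mediator kinase module subunit and a Taf best known from the gonads, whose probes were too dim for a test. Values are log2 signals from which each array's own 75th percentile was subtracted. A value of 0 lies at that percentile, and differences between groups are log2 differences. A change common to most transcripts would be hidden by this scaling, and in total RNA from a culture fewer cells making an mRNA cannot be told apart from less mRNA per cell. A member was called higher or lower where limma's p, adjusted over all 30859 probes tested, was under 0.05. Where a gene had several probes, the one with the highest mean over all arrays is given.

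With cordycepin plus serum, 4 genes were lower than with serum alone, namely Tbp, Taf7, Med26 and Taf1a, and none was higher. Polr2a, which encodes the largest subunit of Pol II, is set beside them as an example of the many members that did not pass. A single such gene cannot show how the promoters of these groups differ. The promoters of the genes that RefSeq lists on build GRCm38.p6 are shown as the 250 bases before the transcription start, in the direction of transcription, to let the sequence be read beside the values. Capitals mark matches to the motifs searched. Taf7 had no promoter entry.
Tbp, chr17:15499638-15499887, plus strand: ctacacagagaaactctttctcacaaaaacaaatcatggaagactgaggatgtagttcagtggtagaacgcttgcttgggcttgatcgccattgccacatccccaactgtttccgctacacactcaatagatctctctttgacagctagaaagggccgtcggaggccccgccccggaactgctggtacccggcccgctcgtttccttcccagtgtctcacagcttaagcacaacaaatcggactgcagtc
Med26, chr8:72548311-72548560, minus strand: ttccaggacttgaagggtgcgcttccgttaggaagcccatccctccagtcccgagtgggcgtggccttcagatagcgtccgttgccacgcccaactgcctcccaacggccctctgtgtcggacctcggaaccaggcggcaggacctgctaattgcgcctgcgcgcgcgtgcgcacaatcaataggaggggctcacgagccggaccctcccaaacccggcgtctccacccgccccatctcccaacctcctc
Taf1a, second listed start, chr1:183388735-183388984, plus strand: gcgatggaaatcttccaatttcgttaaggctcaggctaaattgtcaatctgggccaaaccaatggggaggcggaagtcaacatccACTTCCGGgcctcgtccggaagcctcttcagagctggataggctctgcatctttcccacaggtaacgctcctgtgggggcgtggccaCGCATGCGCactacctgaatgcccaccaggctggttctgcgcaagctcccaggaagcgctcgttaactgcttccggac
Polr2a, chr11:69758634-69758883, minus strand: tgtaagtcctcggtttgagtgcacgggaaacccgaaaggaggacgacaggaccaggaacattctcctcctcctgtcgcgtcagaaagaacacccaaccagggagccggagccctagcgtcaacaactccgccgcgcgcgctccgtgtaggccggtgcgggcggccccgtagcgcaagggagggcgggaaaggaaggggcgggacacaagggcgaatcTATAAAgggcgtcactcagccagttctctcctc
In the Taf1a promoter the first capitals are an ETS site on the opposite strand and the next an NRF1 site. In the Polr2a promoter they are a TATA box. The windows of Tbp and Med26 held none of the letters searched.

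The members had 83 listed promoters for 68 genes, each read over 300 bases from 250 before to 50 after the start and on both strands. The ETS site CCGGAAGT was in 19.3% of these against 3.9% of all 32851 promoters, the E box CACGTG in 18.1% against 7.2%, the YY1 site AANATGGCG in 10.8% against 2.4%, and the NRF1 site CGCATGCGC in 9.6% against 1.8%. The CRE TGACGTCA was in 3.6% against 1.8%, the AP-1 site TGANTCA in 4.8% against 7.8%, and the CArG box, the motif bound by serum response factor, in 0 of 83 against 1.6%. The TATA box TATAAA was about as frequent in members as elsewhere, at 14.5% against 13.6%. Alternative starts of 1 gene overlap, so these shares describe windows and not independent genes, and a match to letters is not a bound site.

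The 8 fibroblast markers looked at (Col1a1, Col1a2, Col3a1, Vim, Thy1, Pdgfrb, Fn1 and S100a4) were above background on every array. None of 5 epithelial markers was above background on all arrays of any group, and the defining keratins Krt8, Krt18 and Krt19 and the cadherin Cdh1 were not above background on any array. Of 4 endothelial markers, 3 were above background on all arrays and Cdh5 on none. The blood markers averaged higher with cordycepin, with mean log2 signals between -0.82 and -0.39 on its arrays and between -1.80 and -1.31 on the others. Of 4 tested, 2 were higher than with serum alone, against 6.61% of all genes, and the differences ran unevenly from 0.13 to 3.04. Of the 5 blood markers, 3 were above background on all arrays without serum, 3 with serum and 4 with cordycepin. Testing required this in only 1 group, so a marker could enter the test through high cordycepin arrays, which favours a rise. The neural markers ranged from -2.62 to -2.30 against -3.18 to -2.90, and 1 of 3 tested was higher. Their part in the results was not tested. The 75th percentile of the signal ranged from 350.5 to 802.2 between arrays, 51.9% to 57.7% of spots were well above background, and no spot was saturated.

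Cordycepin plus serum was compared with serum alone to ask whether cordycepin alters the mRNAs of the transcription machinery in stimulated cells. Most of these mRNAs differed little. Of 78 members, 4 were lower, against 7.77% of all RefSeq mRNA genes tested, and 0 were higher, against 6.61%. Among the 6710 brighter genes the shares were 6.72% lower and 2.22% higher. At an unadjusted p under 0.05, limma gave 8 members lower and 8 higher. The share of all genes at this looser threshold was not counted, so these counts have nothing to be set against. The median difference of the members was 0.06, beside 0.07 over all genes and 0.09 over the brighter ones, and 51 members were positive and 27 negative. The arrays of the groups did not overlap for 15 members that were higher (22% of all genes) and 10 that were lower (15%).

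**Figure D1:**
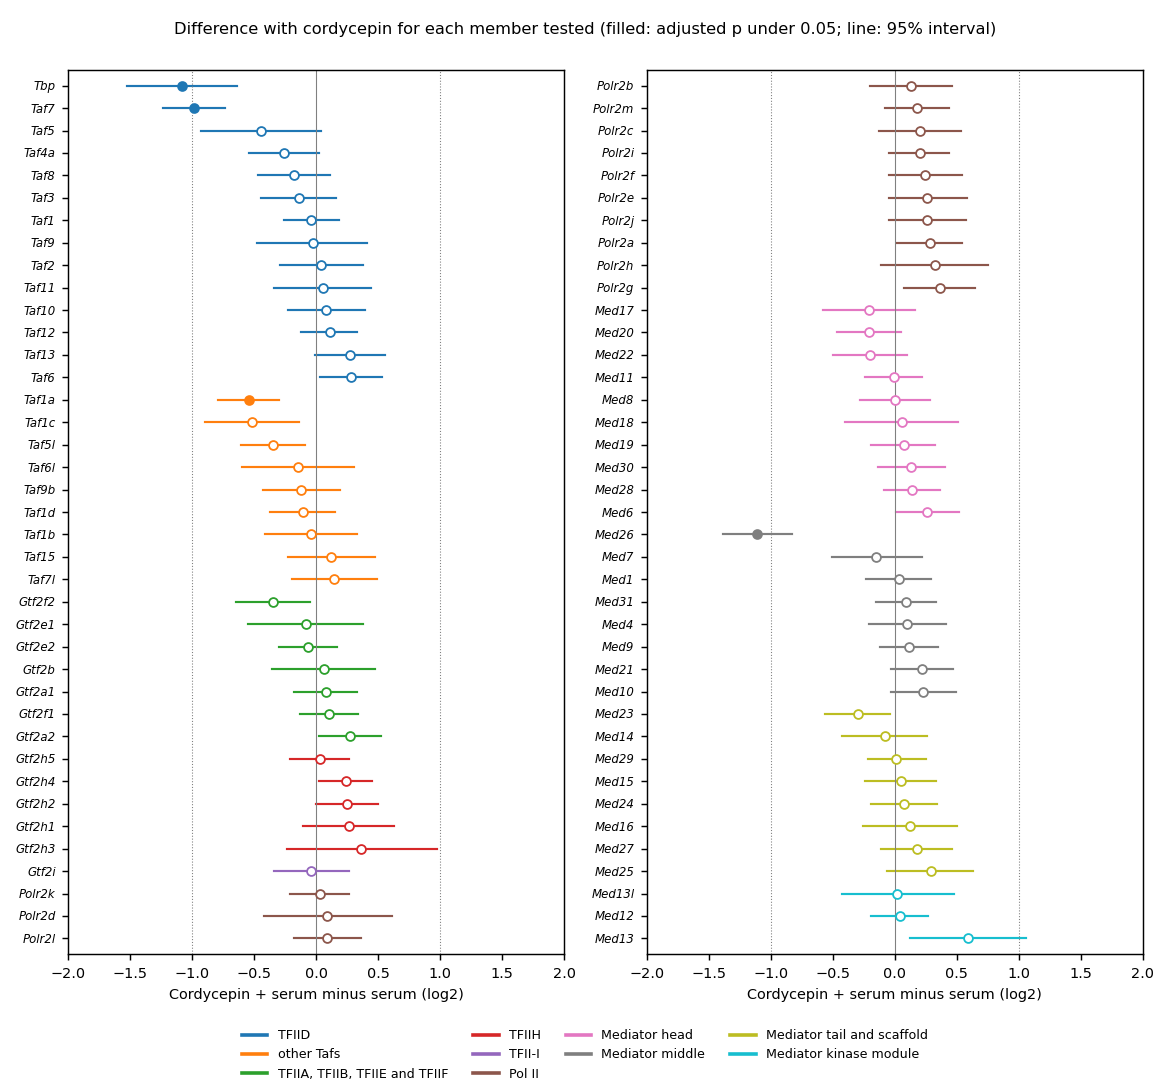
Log2 difference between cordycepin plus serum (3 arrays) and serum (3 arrays) for each of the 78 members tested, coloured by complex, with points for the difference, lines for the 95% interval and dotted lines at a 2-fold change. Only Tbp, Taf7, Med26 and Taf1a have filled points (adjusted p under 0.05). The 13 genes from Polr2a to Polr2m, each by its brightest probe, all lie between 0.03 and 0.36.

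The interval of the difference shows how much change these arrays leave room for. The standard error of a difference had a median of 0.12 and ran from 0.09 to 0.26. For 73 of the 74 members that did not pass, the 95% interval lay within a 2-fold change in either direction, and for 45 within 1.41-fold. The exception at 2-fold was Med13. The intervals of all 74 left out a 2-fold drop.

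In TFIID, 2 of 14 subunits were lower, against 7.77% of all genes, and none higher, against 6.61%. The median was -0.04, beside 0.07 over all genes. Tbp, which binds and bends the TATA box, read 1.55, 1.67 and 1.31 on the serum arrays and 1.02 and 1.45 without serum. With cordycepin it read 0.08, 0.62 and 0.59. All 3 cordycepin arrays lay below every other array. The drop was 1.08 (SE 0.19), which is 2.12-fold lower (limma adjusted p = 0.00511). The probe lies at chr17:15654250-15654309 of mm9 and starts at base 1700 of the transcript.

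A second Tbp probe, printed on the array in 10 spots, starts at base 847 of the same transcript and has no genome position in the files. It is shown because it reads a different stretch of the Tbp transcript.
Tbp, second probe: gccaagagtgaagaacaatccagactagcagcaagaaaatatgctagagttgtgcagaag
It read -1.77, -1.70 and -2.05 with serum, -2.24 and -1.89 without and -2.86, -2.26 and -2.52 with cordycepin. The cordycepin arrays were again the lowest of all. The difference from serum was -0.71 (SE 0.19, limma adjusted p = 0.031). Both Tbp probes therefore passed the test in the same direction.

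The serum arrays averaged above the unstimulated ones for Tbp, by 0.27 with the brighter probe (SE 0.22, limma adjusted p = 0.932), and the groups overlapped. Against no serum, Tbp was lower with cordycepin by the brighter probe (-0.81, SE 0.22, limma adjusted p = 0.0403) and did not pass by the second (-0.48, SE 0.21, limma adjusted p = 0.185).

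Taf7 is a TFIID subunit known to bind Taf1 and restrain its acetyltransferase activity. It read -1.51 and -1.60 without serum and -0.57, -0.81 and -0.65 with serum. With cordycepin plus serum it read -1.71, -1.69 and -1.60. The serum arrays stood above all others, and the cordycepin arrays lay at or just below the unstimulated ones. The rise with serum was 0.88 (SE 0.12, limma adjusted p = 0.0102) and the difference with cordycepin was -0.99 (SE 0.11, limma adjusted p = 0.000381), which is 1.99-fold lower. Cordycepin plus serum differed from no serum by -0.11 (95% interval -0.39 to 0.17, limma adjusted p = 0.594). These comparisons share arrays, the serum arrays being in both of the first.

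A second, dimmer Taf7 probe, starting at base 2614 of the transcript where the brighter one starts at base 1046, varied more. It read -4.74 and -4.46 without serum, -3.87, -3.84 and -4.08 with serum and -3.96, -5.13 and -3.92 with cordycepin. Its serum arrays were above the unstimulated arrays, and 1 cordycepin array was far below the other 2. Neither its difference with cordycepin (-0.41, SE 0.31, limma adjusted p = 0.397) nor that with serum (0.67, SE 0.34, limma adjusted p = 0.631) passed. For the brighter probe, the rise of Taf7 with serum was 0.92 without no serum replicate 1 and 0.84 without no serum replicate 2, and did not pass in either case (limma adjusted p = 0.0611 and 0.0884, the lone array being assumed to vary like the other groups). It did not pass with the probes of the gene averaged.

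**Figure D2:**
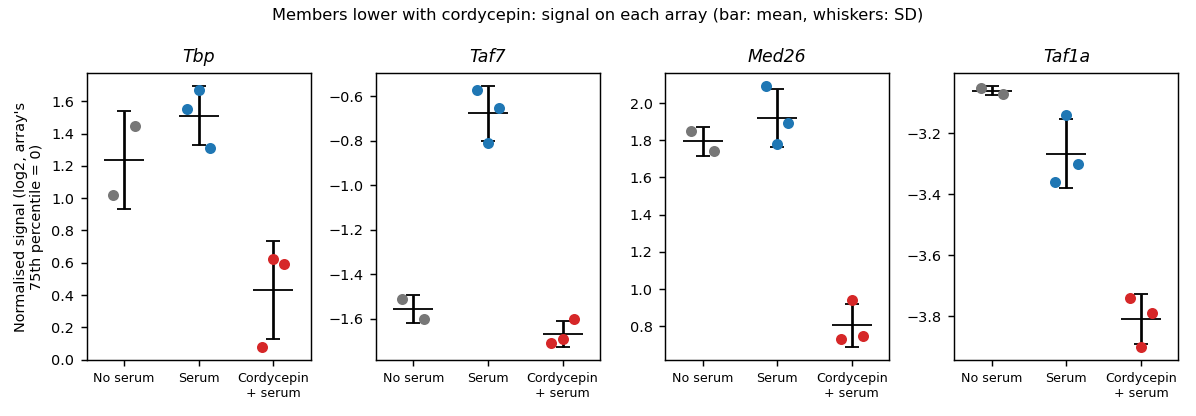
Normalised log2 signal of Tbp, Taf7, Med26 and Taf1a on each array (points), with the mean and SD of each group (bar and whiskers), for 2 arrays without serum, 3 with serum and 3 with cordycepin plus serum, each panel on its own axis. The cordycepin arrays are the lowest in each panel, for Taf7 about level with the arrays without serum, and Taf7 is the gene whose serum arrays stand apart from the unstimulated ones at the top.

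The other 12 TFIID subunits did not pass. Taf1, the largest subunit and the scaffold that contacts the initiator, read between 0.95 and 1.15 on all 8 arrays, with a difference of -0.04 with cordycepin (SE 0.10). Taf5, a WD40-repeat subunit of the TFIID core, differed by -0.45 (95% interval -0.93 to 0.04, limma adjusted p = 0.187), and passed only without cordycepin replicate 2, at an adjusted p of 0.0486. Taf4a, now named Taf4, differed by -0.26 and Taf6, a histone-fold subunit, by 0.28, with adjusted p of 0.191 and 0.115.

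Of 9 Tafs tested outside canonical TFIID, 1 was lower, against 7.77% of all genes, with a median of -0.12 beside 0.07. Taf1a, Taf1b, Taf1c and Taf1d form SL1 with Tbp, the factor that selects the promoter of the ribosomal RNA genes for Pol I. Taf1a read -3.05 and -3.07 without serum, -3.36, -3.14 and -3.30 with serum and -3.74, -3.90 and -3.79 with cordycepin. The groups did not overlap in any comparison. The drop with cordycepin was 0.54 (SE 0.11, limma adjusted p = 0.00817), or 1.46-fold. Under the normexp background correction it was -0.08 and did not pass. The probe was dim, with a mean of -3.42 over all arrays.

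Taf1c pointed the same way without passing. It read 0.04, -0.02 and -0.26 with serum and -0.83, -0.51 and -0.46 with cordycepin, a difference of -0.52 (95% interval -0.90 to -0.14, limma adjusted p = 0.0658). Of the Tafs of histone acetyltransferase complexes, Taf5l had -0.35 (limma adjusted p = 0.0643) and Taf6l -0.15 (limma adjusted p = 0.640). Taf5l passed under quantile normalisation only, at an adjusted p of 0.033. The paralogues Taf9b and Taf7l differed by -0.12 and 0.14.

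None of the 7 subunits of TFIIA, TFIIB, TFIIE and TFIIF passed by its brightest probe, and their median was 0.06. A dimmer probe of Gtf2a2, given below, was higher. Gtf2b, the single polypeptide of TFIIB that places Pol II over the start site, differed by 0.06 (95% interval -0.36 to 0.47). Gtf2a1 of TFIIA differed by 0.08, Gtf2e1 of TFIIE by -0.08 and Gtf2f1 of TFIIF by 0.10. Gtf2i, which encodes TFII-I, differed by -0.04.

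All 5 Gtf2h genes, which encode core subunits of TFIIH, were positive with cordycepin, from 0.03 to 0.36, and none passed. Their median was 0.25, beside 0.07 over all genes, of which 8075 of 13420 were positive. Of 5 other TFIIH genes, looked at as neighbours, 4 were positive and Cdk7, given below, was lower at -0.52. Gtf2h1 read 2.90, 2.82 and 2.68 with serum and 3.37, 2.98 and 2.83 with cordycepin, and these groups overlapped. Its difference was 0.26 (95% interval -0.11 to 0.63, limma adjusted p = 0.309).

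No Pol II subunit mRNA was lower by the test. By the brightest probe of each, all 13 genes from Polr2a to Polr2m were positive with cordycepin, from 0.03 to 0.36, and none passed. Over all genes, 8075 of 13420 were positive. A second probe of Polr2l was higher at 0.69 and passed. That of Polr2c, named after its values were seen, gave -0.02. The brightest probes of Polr2k and Polr2l are mapped to another chromosome than their gene. The median of the 13 was 0.20, beside 0.07 over all genes. It was 0.14 under quantile normalisation or centring on the spike-in probes and 0.18 under normexp. The arrays of the groups did not overlap for 6 of the 13, all higher, beside 22% of all genes. Polr2a read -0.17, -0.31 and -0.09 with serum and 0.10, 0.13 and 0.04 with cordycepin. Its cordycepin arrays were all above the serum arrays, and the no serum arrays, at 0.06 and -0.18, spanned both. The difference was 0.28 (95% interval 0.02 to 0.54, limma adjusted p = 0.136). Polr2b, the second largest subunit, differed by 0.13 (limma adjusted p = 0.557). Among the brightest probes, the largest difference was that of Polr2g, at 0.36 (limma adjusted p = 0.087), a gene named here after its values were seen.

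In Mediator, 29 of 30 genes were tested and Med26 alone was lower, against 7.77% of all genes. The median was 0.06, beside 0.07 over all genes. In Mediator 21 genes were positive and 8 negative, beside 8075 and 5345 of all 13420. Med26 is a metazoan subunit known to recruit elongation factors to Pol II. It read 1.85 and 1.74 without serum, 2.09, 1.78 and 1.89 with serum and 0.73, 0.94 and 0.75 with cordycepin. The cordycepin arrays lay well below both other groups, which overlapped. The drop was 1.11 (SE 0.12), which is 2.16-fold lower (limma adjusted p = 0.00043), and serum alone changed it by 0.13 (SE 0.14, limma adjusted p = 1.00). The gene had 1 probe, at chr8:75018572-75018631 of mm9.

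Apart from Med26, a subunit of the middle module, no gene of any module passed by its brightest probe. A dimmer probe of Med28, given below, was higher. The head had a median of 0.03 over 10 genes, and Med17, a head scaffold subunit, differed by -0.21 (95% interval -0.58 to 0.16). The middle module, Med26 included, had a median of 0.10 over 8 genes, and Med1, the subunit contacted by nuclear receptors, differed by 0.03. The tail and scaffold had a median of 0.06 over 8 genes, and Med14, the scaffold that joins the modules, differed by -0.08.

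In the kinase module, Med12 and Med13l differed by 0.04 and 0.02. Med13, which tethers the kinase module to the core, read -2.90, -2.32 and -2.82 with serum, -2.94 and -2.74 without, and -1.82, -2.40 and -2.05 with cordycepin. One cordycepin array overlapped the serum arrays. The difference was 0.59 (95% interval 0.12 to 1.06, limma adjusted p = 0.0832), the highest of all members. Without cordycepin replicate 2 or without serum replicate 2 it passed, with an adjusted p as low as 0.0306.

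With a 2-fold minimum added, 2 members were lower, Med26 and Tbp, against 2.51% of all genes. Taf7 fell just short of it.

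**Figure D3:**
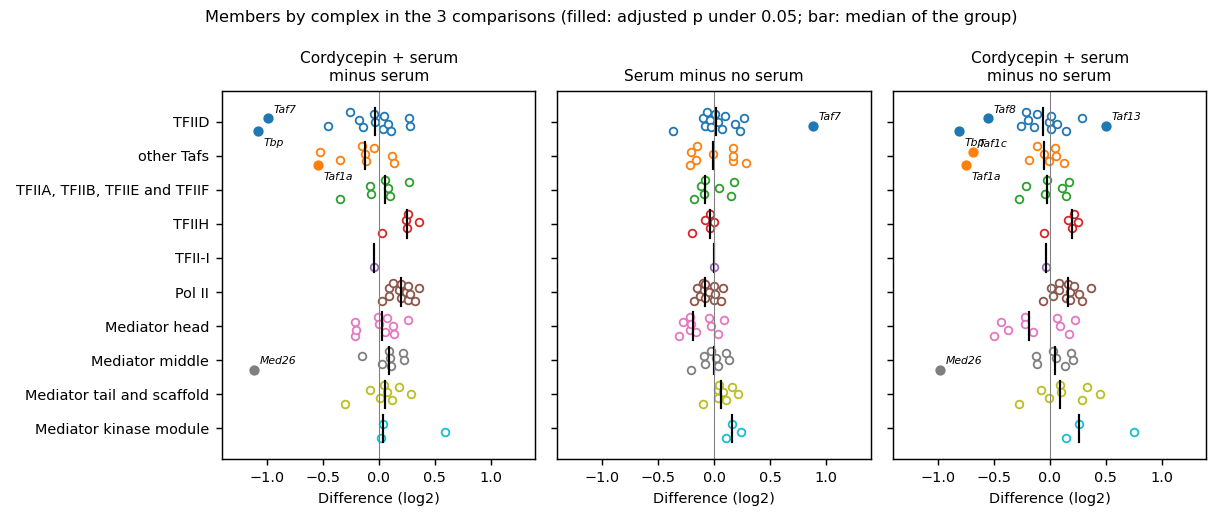
Log2 difference of the 78 members in each comparison, arranged by complex, with 1 point per gene, filled and named where the adjusted p was under 0.05, and a bar at the median of each complex. Most points lie near 0, the points named on the left are Tbp, Taf7, Taf1a and Med26, and Taf7 alone is named under serum.

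The serum comparison asked what 30 min of serum did to the same mRNAs. Taf7 was higher, 1 of 78 members against 1.23% of all genes, and 0 were lower, against 0.127%. At an unadjusted p under 0.05, limma gave 1 higher and 1 lower, and the share of all genes at this threshold was not counted. The differences ran from -0.37 for Taf8, a TFIID histone-fold subunit (limma adjusted p = 0.376), to 0.88 for Taf7, with a median of -0.02 beside -0.01 over all genes. Groups did not overlap for 3 members that were higher (10.4% of all genes) and 12 that were lower (9.91%). For all 77 that did not pass, the 95% interval lay within a 2-fold change, and for 51 within 1.41-fold. Only 2 arrays stand for the cells without serum, and the standard errors had a median of 0.14.

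Cordycepin plus serum was also set against no serum, a comparison that shares the cordycepin arrays with the first and the no serum arrays with the second. In it 5 members were lower, against 5.47% of all genes, and 1 was higher, against 5.49%. Med26 (-0.98, SE 0.14, limma adjusted p = 0.0021), Taf1a (-0.75, SE 0.12, limma adjusted p = 0.00383) and Tbp were again lower. Under the normexp background correction the difference of Taf1a was -0.09 and did not pass (limma adjusted p = 0.73). Taf8 and Taf1c were lower and Taf13, a TFIID histone-fold subunit, was higher. The median of the members was 0.05 beside 0.06 over all genes. Groups did not overlap for 16 higher members (25.4% of all genes) and 14 lower ones (16.1%).

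Taf8 read 1.72 and 2.10 without serum, 1.60, 1.52 and 1.51 with serum and 1.28, 1.45 and 1.38 with cordycepin. The 3 groups did not overlap, and the difference from no serum was -0.55 (SE 0.14, limma adjusted p = 0.0351). Taf13 ran the other way, at 0.54 and 0.67, then 0.83, 0.85 and 0.83, then 1.32, 0.95 and 1.06, a difference of 0.50 from no serum (SE 0.14, limma adjusted p = 0.0433). The files map the Taf13 probe to another chromosome than the one RefSeq gives for the gene. Taf1c, at -0.15 and 0.31 without serum, differed by -0.68 (SE 0.19, limma adjusted p = 0.0443). These 3 calls and that of Tbp were lost under 13 or 14 of 19 alternatives, among them the removal of cordycepin replicate 1 or 3, or of serum replicate 1. Leaving out any 1 array gave 2 to 4 lower and 0 to 2 higher.

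Where a gene had more than 1 tested probe, the probes mostly gave similar differences with cordycepin. There were 24 such members, with a median spread of 0.15 between probes. In 4 the spread was over 0.5. Besides Taf7 these were Med28, Gtf2a2 and Polr2l, named after their values were seen, and each had a dim probe that was higher with cordycepin beside a bright one that was not. For Med28, a Mediator head subunit, a probe starting at base 4508 of the transcript was higher by 1.23 (SE 0.18, limma adjusted p = 0.00184), while the probe at base 805 gave 0.14 and that at base 316 gave 0.10. For Gtf2a2, the small subunit of TFIIA, the probe at base 1106 was higher by 0.73 (limma adjusted p = 0.00635), and those at bases 998 and 654 gave 0.27 and 0.03. For Polr2l, a small subunit shared by the nuclear polymerases, the probe at base 1384 was higher by 0.69 (limma adjusted p = 0.0352) and that at base 341, which the files map to another chromosome than the gene, gave 0.09. In each of these 3 genes the probe that was higher was the dimmest and, of those tested, the nearest to the 3′ end of the transcript.

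**Figure D4:**
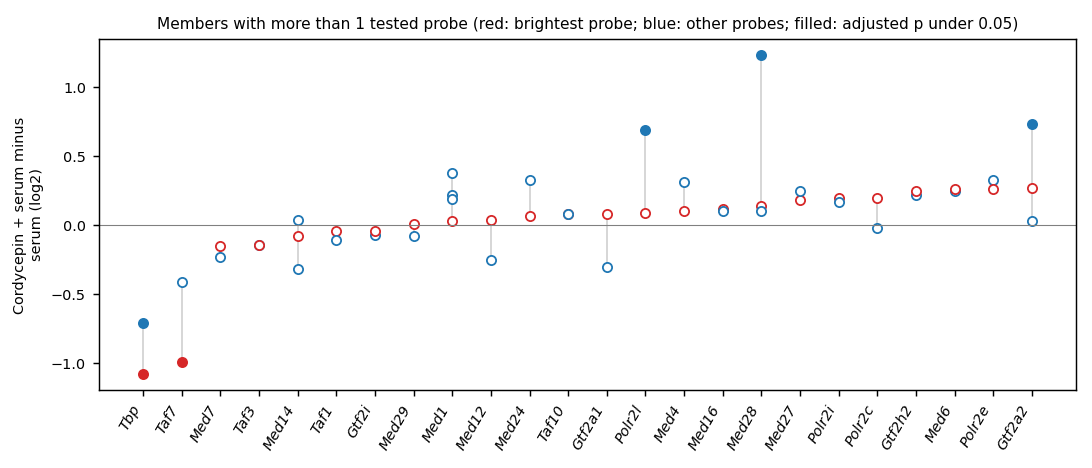
Log2 difference between cordycepin plus serum and serum for every tested probe of the 24 members with more than 1, with the brightest probe of a gene in red, other probes in blue and filled points for an adjusted p under 0.05. Both Tbp probes lie below 0, and Med28, Gtf2a2 and Polr2l each have 1 dim probe far above the bright one.

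Genes that work with these complexes but are named otherwise were looked at beside them. Of 26 tested, 1 was higher with cordycepin, against 6.61% of all genes, and 1 lower, against 7.77%, with a median of 0.17 beside 0.07. Cdk7, the kinase of TFIIH that phosphorylates the Pol II tail, read 1.66, 1.58 and 1.50 with serum and 0.97, 1.16 and 1.05 with cordycepin, a difference of -0.52 (limma adjusted p = 0.00909). Btaf1, an ATPase that removes Tbp from DNA, read 1.76, 1.70 and 1.36 with serum and 2.47, 2.38 and 2.02 with cordycepin, a difference of 0.68 (limma adjusted p = 0.0205). The groups did not overlap for either gene, and none of the 26 passed for serum.

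The machinery of Pol I and Pol III was measured for contrast. Of 35 such genes tested, 5 were lower with cordycepin, against 7.77% of all genes, and 1 was higher, against 6.61%, with a median of -0.03. Polr3d, a Pol III subunit, read 2.23, 2.03 and 2.00 with serum and 1.09, 1.03 and 1.07 with cordycepin, a difference of -1.02 (limma adjusted p = 0.000284). Brf2, which joins Tbp at Pol III promoters with an upstream element, differed by -1.06 (limma adjusted p = 0.00182). Snapc1, Snapc3 and Polr3a were lower by the same test at -0.74, -0.61 and -0.39, and Snapc5 was higher at 0.43. Snapc genes encode the complex that binds the promoters of small nuclear RNA genes. All 6 were Pol III or small nuclear RNA factors, and none of the 10 genes on the Pol I list passed in this comparison. Against no serum, 4 of the 35 were lower, against 5.47% of all genes, and 0 higher, against 5.49%. From the Pol I list this was Cd3eap, at -0.78 (SE 0.18, limma adjusted p = 0.0241). The Tafs of the Pol I factor SL1, among them Taf1a, were counted with the members and not on that list. The difference between Pol II and these sets was not tested.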

How the data were processed

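Total RNA was labelled with Cy3 and hybridised to 8 Agilent mouse arrays. The authors deposited scanner output, in which Feature Extraction 10.7.3.1, per the file headers, gives each spot a background-subtracted intensity and flags for background, saturation and outliers. Probe positions in the files refer to mm9. The log2 of the processed signal, minus the 75th percentile of the non-control spots of its array, was used here. Outlier and control spots were dropped, and repeated spots were averaged per probe. Testing required a signal well above background on all arrays of 1 group or more, which kept 30859 of 55681 probes. Groups were compared with limma 3.58.1 in R 4.3.3, with a mean per group over all 8 arrays and Benjamini-Hochberg adjustment over all probes tested, two-sided. The study's methods name limma. The calculation was tested on simulated data.

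The members and gene lists were chosen with earlier results of these data known. Genes named were subunits that passed in any comparison, the core subunits of each complex, a set of paralogue pairs and the untested members. Others are marked in the text. Gene symbols are those of the array design, and 78 of 80 accessions matched RefSeq. The reported probes of Gtf2h4, Polr2f, Taf1a and Taf1b have no position in the files, and those of Med16, Med29, Polr2k, Polr2l and Taf13 are mapped to another chromosome than their gene. The 8 arrays shared 1 slide and 1 scan. Alternatives covered background correction, normalisation, the filter on dim probes, the threshold, the choice of probe, the arrays fitted, blocks, and leaving out each array. The number of arrays limits the precision.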

Additional observations from a re-analysis of the deposited data

How the results depend on the processing

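The 4 members lower with cordycepin than with serum alone stayed 4 under most alternatives. They became 0 with arrays centred on the spike-in probes, where the standard errors are larger, and 2 with a 2-fold minimum on either the adjusted or the unadjusted p. On the spike-in scale Med26 had -1.17, Tbp -1.15, Taf7 -1.05 and Taf1a -0.61, with limma adjusted p of 0.265, 0.296, 0.411 and 1. The count higher became 1 (Med28) with the probes of a gene averaged. Leaving out 1 array gave 4 to 5 lower and 0 to 1 higher.

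For serum, the 1 member higher became 0 with spike-in centring, without the filter on dim probes, with a 2-fold minimum on either p, and with probes averaged. Leaving out 1 array gave 0 to 1 higher and 0 lower. Spike-in centring moved the median of all genes by serum to -0.36 and that of the members to -0.37.

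For cordycepin plus serum against no serum, the 5 lower became 0 with spike-in centring and with a 2-fold minimum on either p, 2 without the filter, with only both groups' arrays, or with the slide row as a block. The 1 higher became 0 under each of these and 2 with probes averaged. Leaving out 1 array gave 2 to 4 lower and 0 to 2 higher. With the replicate number as a block, this comparison gave 3 lower and 0 higher, and the cordycepin against serum comparison 4 lower and 0 higher, again Med26, Taf1a, Taf7 and Tbp. Same-numbered arrays deviated together only weakly (r from -0.17 to 0.23). Deviations from the mean of a group of 2 or 3 arrays cancel out, so these r cannot decide whether the numbers pair the arrays. The labels do not state a pairing, and the arrays were treated as unpaired. The genes named had 11 calls over the 3 comparisons. Over all alternatives, these gave 209 results, of which 132 kept the call and 77 lost it. Of 1444 results for differences that were not called, 6 gained a call, and 0 called differences changed direction. The causes were not tested.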
